A study of Callithrix jacchus with 39 samples.

Results

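The genes that write, copy and remove DNA methylation were followed through marmoset pluripotent cells and early embryos. Genes were taken by symbol: the methyltransferases DNMT1 (ENSCJAG00000005794), DNMT3A (ENSCJAG00000008172), DNMT3B (ENSCJAG00000015617) and DNMT3L, the dioxygenases TET1 (ENSCJAG00000019005), TET2 (ENSCJAG00000015737) and TET3 (ENSCJAG00000017853), and UHRF1 (ENSCJAG00000017420). Of these 8 genes, 7 each had 1 row among the 30811 genes of the count table, and DNMT3L was not analysed here. The libraries are 39 poly(A)+ RNA libraries of the common marmoset, Callithrix jacchus, in 13 groups of 3. Embryonic stem cells (ESCs) make up 6 groups. The naive groups are DSY-c2 cells labelled TgON and N40 cells labelled TgOFF. The primed groups are DSY-c2 and N40 cells labelled Tg, and cells of the lines DSY127 and No.40, which carry no such mark in their labels. The other 7 groups are morulae, inner cell masses (ICM) of blastocysts labelled early, plain, expanded, hatching and hatched, and postimplantation epiblast.

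The labels name neither the transgene behind "Tg" nor what switches it, and TgON and TgOFF each occur in 1 line, so transgene state and line cannot be told apart. Culture medium, sex and age are not given. The labels also do not say whether a line is 1 clone, how many embryos entered a library, or whether a group's 3 libraries derive from different cultures or embryos. The p-values therefore measure the spread between libraries, which may be technical.

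DNMT3A and DNMT3B place methyl groups on unmethylated cytosines, chiefly where cytosine precedes guanine. DNMT1 copies the pattern to the new strand after DNA replication, and UHRF1 recognises the half-methylated site and brings DNMT1 to it. The TET enzymes oxidise the methyl group, which leads to its loss by dilution or by base excision repair. In mouse and human, the DNA of the blastocyst carries little methylation and regains it around implantation, and naive pluripotent cells in several culture systems resemble the blastocyst in this. The values here are transcript levels only, and DNA methylation itself was not analysed here.

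Total counts ran between 38.8 M and 78.7 M per ESC library and between 45.3 M and 59.0 M per embryo library. The lowest count of any of the 7 genes in any library was 220, for TET3, and all 7 passed the filter on low counts in every test. Levels are given in CPM, the gene's counts per M of the library's counts, scaled by TMM (trimmed mean of M values) over all 39 libraries. Each test scaled only the libraries of its own fit, so a fold change can differ from the ratio of the printed levels. A gene is called changed at an adjusted p below 0.05 in edgeR's quasi-likelihood test, and each log2 fold change is given with its standard error (SE). CPM does not take gene length into account, so levels are compared between groups and not between genes. Where libraries of 2 groups are said not to overlap, the share of all genes that do the same was not computed.

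The labelled states were checked against marker genes. The summed level of 7 naive markers (such as KLF17, ESRRB and DPPA5) was 2813 to 4014 CPM in naive ESCs, against 234 to 1318 CPM in primed ESCs. The summed level of 4 primed markers (ZIC2, SFRP2, SALL2 and CYTL1) was 39.6 to 112 CPM in naive ESCs, against 653 to 1151 CPM in primed ESCs. Some libraries stood apart. Primed DSY-c2 Tg library 4 had 265 CPM of summed mesoderm markers and 476 CPM of primitive endoderm markers, against 45.8 and 46.7 CPM of mesoderm markers in the other 2 libraries. Hatched ICM library 1 had 1465 CPM of trophectoderm markers, against 233 and 588 CPM in its group, and hatched ICM library 2 had 353 CPM of the primed markers, against 7.23 and 26.6 CPM. No.40 library 1 had 124 CPM of mesoderm markers, against 16.8 and 14.2 CPM in its group, and 396 CPM of primitive endoderm markers, against 65.5 and 22 CPM. Column names carry run labels, L1 and L2 for most libraries and L6 and L7 for the 3 primed DSY-c2 Tg libraries, naive DSY-c2 libraries 1 and 2, and No.40 library 1; the names do not say what these labels stand for.

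In both lines the naive cells had less transcript of the de novo enzymes DNMT3A and DNMT3B, of UHRF1 and of TET3, and more of DNMT1 and TET2. TET1 was lower in naive DSY-c2 TgON cells and higher in naive N40 TgOFF cells, by small amounts. In DSY-c2 all 7 genes were called, 2 higher and 5 lower, where 58.8% of the 17957 genes tested were called. In N40 all 7 were called as well, 3 higher and 4 lower, beside 61% of all genes tested. With so many genes called, the count alone sets the 7 genes little apart. The median absolute log2 fold change over the 7 genes was 1.60 in DSY-c2 and 2.25 in N40, beside 0.709 and 0.783 over all genes tested. The genes were chosen with earlier results of these data known, so their larger sizes are a description and not a test. The 4 fibroblast markers in the table summed to 54.1 to 143 CPM in naive DSY-c2 cells, against 282 to 353 CPM in primed ones. In N40 they summed to 142 to 306 CPM in naive cells, against 482 to 762 CPM in primed ones. Gene by gene, 0 were called higher and 2 lower in naive DSY-c2 cells (median log2 fold change -0.48). In naive N40 cells 2 were called higher and 1 lower (median 2.84), so the N40 sum hides markers that rose. The part of these markers in the results was not tested. In bulk RNA, fewer cells with a transcript and less transcript per cell cannot be told apart.

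**Figure D1:**
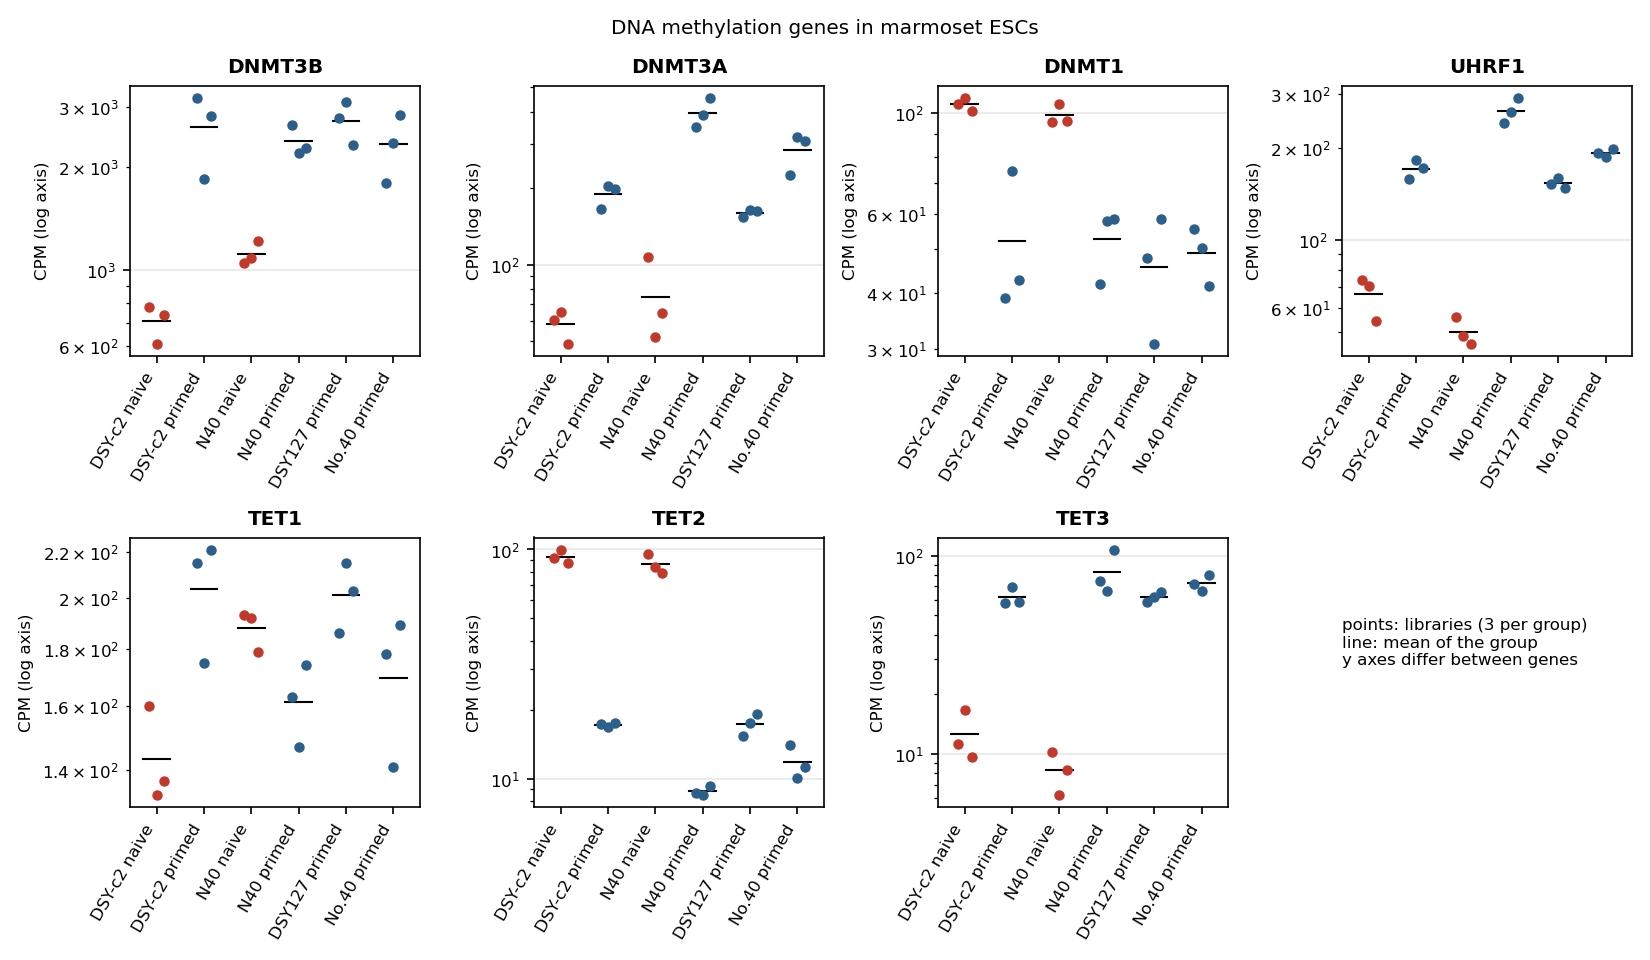
Transcript levels of the 7 genes in the 6 ESC groups, in TMM-scaled CPM on a log axis that differs between genes. Each point is 1 library (red naive, blue primed) and each line a group mean of 3 libraries. Within each line, naive and primed libraries do not overlap for any of the 7 genes. For TET1 the naive libraries are the lower ones in DSY-c2 and the higher ones in N40. Of all genes, 58.8% were called in DSY-c2 and 61% in N40. The share of all genes with such separate libraries was not computed.

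DNMT3B, the de novo enzyme that dominates in the implanting embryo of the mouse, had 780, 611 and 741 CPM in naive DSY-c2 TgON libraries, against 3172, 1849 and 2821 CPM in primed DSY-c2 Tg libraries. The groups did not overlap, and the lowest primed value belonged to library 4. DNMT3B fell by 1.77 on the log2 scale in naive DSY-c2 cells (SE 0.18, adjusted p = 5.14e-07, edgeR), a 3.42-fold difference, and fell by 1.99 without primed library 4. In N40 it had 1047, 1082 and 1218 CPM in naive TgOFF libraries, against 2655, 2199 and 2266 CPM in primed Tg libraries. Again no naive library reached a primed one, and DNMT3B fell by 0.94 (SE 0.18, adjusted p = 0.000229, edgeR), a 1.92-fold difference.

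DNMT3A, its partner enzyme, had 60.7, 64.9 and 48.9 CPM in naive DSY-c2 libraries, against 166, 204 and 198 CPM in primed ones. All naive libraries lay below all primed libraries, and DNMT3A fell by 1.60 (SE 0.21, adjusted p = 9.49e-06, edgeR). In N40 the naive libraries had 107, 52.0 and 64.7 CPM, against 349, 389 and 453 CPM in the primed libraries. Naive N40 library 1 was the highest of its group and still below every primed library, and DNMT3A fell by 2.26 (SE 0.22, adjusted p = 2.33e-07, edgeR). The primed levels were 189 ± 20.1 CPM in DSY-c2 Tg cells and 397 ± 52.3 CPM in N40 Tg cells (SD, n = 3 each).

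The maintenance pair, DNMT1 and UHRF1, moved in opposite directions. DNMT1 had 105, 108 and 101 CPM in naive DSY-c2 libraries, against 39, 74.6 and 42.8 CPM in primed ones, and 95.7, 105 and 96.1 CPM in naive N40 libraries, against 41.9, 57.8 and 58.3 CPM in primed ones. Naive libraries of both lines were above every primed library of their line, and the high primed value of 74.6 CPM was library 4 of DSY-c2. DNMT1 rose by 1.10 (SE 0.24, adjusted p = 0.00104, edgeR) in DSY-c2, or by 1.44 without primed library 4, and by 1.05 (SE 0.24, adjusted p = 0.00136, edgeR) in N40.

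UHRF1, the adaptor that recruits DNMT1, had 74.1, 71.0 and 54.3 CPM in naive DSY-c2 libraries, against 158, 182 and 172 CPM in primed ones. In N40 the values were 56.0, 48.5 and 45.9 CPM in naive libraries, against 241, 261 and 290 CPM in primed ones. The groups were apart in both lines. UHRF1 fell by 1.26 (SE 0.11, adjusted p = 1e-07, edgeR) in DSY-c2 and fell by 2.25 (SE 0.11, adjusted p = 2.3e-10, edgeR) in N40. Of 12 S phase genes tested, 8 were called higher and 2 lower in naive DSY-c2 cells and 7 higher and 2 lower in naive N40 cells. Their summed level was 2840 to 2954 CPM in naive DSY-c2 cells, against 2256 to 2423 CPM in primed ones, and 3395 to 3509 CPM in naive N40 cells, against 2925 to 3399 CPM in primed ones. Of 5 proliferation genes, 1 was higher and 2 lower in naive DSY-c2 cells and 0 higher and 1 lower in naive N40 cells, with sums of 1338 to 1554 CPM in naive DSY-c2 cells, against 1455 to 2178 CPM in primed ones, and 999 to 1436 CPM in naive N40 cells, against 1444 to 2078 CPM in primed ones. The part of either list in the UHRF1 levels was not tested.

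TET2, which lacks the CpG-binding domain found in the other TET enzymes of mammals, was the member with the largest rise in both lines. It had 91.5, 99.7 and 87.7 CPM in naive DSY-c2 libraries, against 17.3, 16.8 and 17.5 CPM in primed ones. The replicates were close together on both sides, and TET2 rose by 2.54 (SE 0.12, adjusted p = 2.89e-10, edgeR), a 5.80-fold difference. In N40 it had 96.0, 84.1 and 78.8 CPM in naive libraries, against 8.66, 8.47 and 9.29 CPM in primed ones. The rise was 3.44 (SE 0.13, adjusted p = 2.86e-11, edgeR), a 10.9-fold difference, and the naive levels of the lines overlapped while the primed levels did not.

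TET3, the form best known from the oocyte and zygote, had 11.3, 16.7 and 9.66 CPM in naive DSY-c2 libraries, against 57.5, 69.6 and 58.6 CPM in primed ones. In N40 it had 10.3, 6.21 and 8.31 CPM in naive libraries, against 74.5, 66.2 and 107 CPM in primed ones. No naive library came near a primed one in either line. TET3 fell by 2.20 (SE 0.22, adjusted p = 3.84e-07, edgeR) in DSY-c2 and fell by 3.18 (SE 0.23, adjusted p = 8.94e-09, edgeR) in N40, a 9.04-fold difference.

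TET1, the main TET of mouse ESCs together with TET2, changed least. Its levels were 160, 133 and 137 CPM in naive DSY-c2 libraries, against 215, 175 and 221 CPM in primed ones, and 193, 192 and 179 CPM in naive N40 libraries, against 163, 147 and 174 CPM in primed ones. The gap between the groups was narrow in both lines, and its direction was opposite. TET1 fell by 0.40 (SE 0.11, adjusted p = 0.00461, edgeR) in DSY-c2 and rose by 0.37 (SE 0.11, adjusted p = 0.00825, edgeR) in N40. The N40 call was not kept under all settings. With DESeq2's size factors it held (0.28). Without the filter on low counts the change was 0.25 (adjusted p = 0.0805, edgeR). There the log2 fold changes of the genes in both fits shifted by a median of -0.111. The call was also lost without either of naive N40 libraries 1 and 2 or primed N40 libraries 1 and 2 (0.22 to 0.28). In 1 fit over all 39 libraries, which scales them together as the printed levels do, the change was 0.22 (adjusted p = 0.812, edgeR).

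The calls were repeated within run labels. Within the L6 and L7 libraries, naive DSY-c2 libraries 1 and 2 against the 3 primed ones, all 7 calls held, with DNMT3B at -1.86, TET2 at 2.53, TET1 at -0.42 and UHRF1 at -1.18 (adjusted p = 0.0333 for TET1, edgeR), a restriction chosen after the data were seen. Over all genes 9494 of 18146 were called within the L6 and L7 libraries. All 6 N40 libraries carried L1 and L2. In 1 fit over all 39 libraries, which pools ESC and embryo libraries to estimate the spread, 4 of 7 genes were called in each line, where 1748 of 18756 genes were called in DSY-c2 and 2371 in N40, with DNMT1, TET1 and TET2 (adjusted p = 0.0523, edgeR) no longer called in DSY-c2 and DNMT1, DNMT3B and TET1 no longer called in N40.

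The size of the naive change differed between the lines for 5 of the 7 genes, 2 with a more positive and 3 with a more negative change in DSY-c2, where 15.1% of genes tested differed. The difference, DSY-c2 minus N40, was -0.83 for DNMT3B (SE 0.25, adjusted p = 0.0343, edgeR interaction), -0.77 for TET1 (SE 0.15, adjusted p = 0.00358) and -0.90 for TET2 (SE 0.17, adjusted p = 0.00212). It was 0.99 for UHRF1 (SE 0.16, adjusted p = 0.000745) and 0.97 for TET3 (SE 0.30, adjusted p = 0.0372). DNMT3B thus fell further in DSY-c2, and UHRF1 and TET3 fell further in N40. DNMT1 differed by 0.05 (SE 0.34, adjusted p = 0.955) and DNMT3A by 0.66 (SE 0.29, adjusted p = 0.145) and neither was called, although DNMT3A was called without naive N40 library 1 (1.09). The DNMT3B difference lost its call when any 1 of 10 libraries was left out (-0.60 to -0.83), namely all but primed DSY-c2 library 4 and primed N40 library 1, and without the filter on low counts (-0.79). The TET3 difference lost its call without naive DSY-c2 library 2, primed DSY-c2 library 2 or 5, naive N40 library 2 or 3, or primed N40 library 3 (0.75 to 1.01). In the fit over all 39 libraries 0 of the 7 differences were called (adjusted p = 0.912 for UHRF1, and 1 for DNMT3B, TET1, TET2 and TET3), where 12 of 18756 genes were. Naive DSY-c2 library 3 shares the run labels of N40 and the other DSY-c2 libraries do not. With each line kept to 1 set of run labels, the naive change in DSY-c2 and in N40 was -1.86 and -0.94 for DNMT3B, -0.42 and 0.36 for TET1, 2.53 and 3.44 for TET2, -2.09 and -3.18 for TET3, and -1.18 and -2.25 for UHRF1, but the difference itself was not tested in that way.

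**Figure D2:**
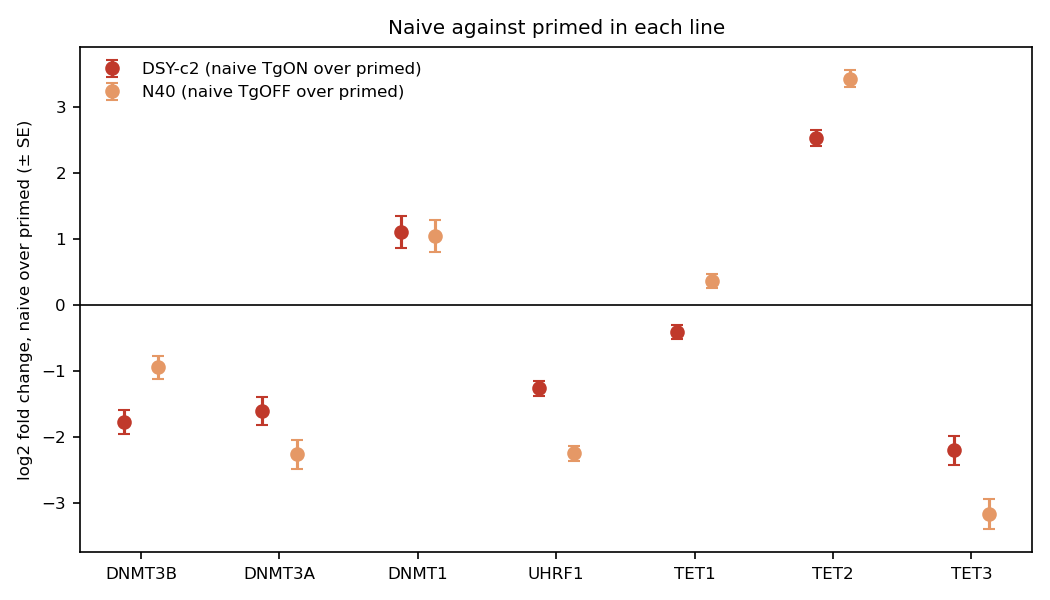
Log2 fold change of naive over primed cells for the 7 genes in DSY-c2 and in N40, with SE from edgeR. Points above 0 are higher in naive cells. TET2 and DNMT1 lie above 0 in both lines, DNMT3A, DNMT3B, UHRF1 and TET3 below it, and TET1 on opposite sides of 0.

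Set directly against each other, naive DSY-c2 and naive N40 cells differed in 4 of the 7 genes, 2 higher and 2 lower, beside 34.1% of all genes. Naive DSY-c2 cells had less DNMT3B (-0.64, SE 0.18, adjusted p = 0.0104, edgeR) and less TET1 (-0.38, SE 0.11, adjusted p = 0.0126), and more UHRF1 (0.41, SE 0.11, adjusted p = 0.00836) and more TET3 (0.61, SE 0.21, adjusted p = 0.0365). DNMT1, DNMT3A and TET2 did not pass the threshold. Without naive DSY-c2 library 2, DNMT3B (-0.54), TET1 (-0.33) and TET3 (0.36) were not called. TET1 was also not called without naive DSY-c2 library 3 (-0.34), nor TET3 without naive N40 library 2 (0.46) or 3 (0.61), and DNMT3A was called without naive N40 library 2 (-0.54). In the fit over all 39 libraries 0 of the 7 and 90 of 18756 genes were called, and with only the groups compared TET3 was not called (adjusted p = 0.0965, edgeR). Of the naive DSY-c2 libraries, library 3 alone shares the run labels of N40; with that library only, a comparison chosen after the data were seen, DNMT3B stayed called at -0.57 (adjusted p = 0.0307), TET1 was -0.44 (adjusted p = 0.0599), UHRF1 0.14 (adjusted p = 0.534) and TET3 0.25 (adjusted p = 0.599).

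Among the primed groups, 3 pairs were compared. Primed DSY-c2 Tg cells and primed DSY127 cells differed in 0 of the 7 genes by edgeR, 0 at an unadjusted p below 0.05 and 0 by DESeq2, where 1.88% of all genes were called; the largest of the 7 differences was 0.18 (SE 0.21), for DNMT3A. Their run labels also differ throughout, so run and line cannot be told apart there. The 4 fibroblast markers summed to 282 to 353 CPM in DSY-c2 Tg libraries, against 739 to 1757 CPM in DSY127 libraries. They summed to 482 to 762 CPM in N40 Tg libraries, against 990 to 1805 CPM in No.40 libraries. The part of these markers in the primed comparisons was not tested. Primed N40 Tg cells and primed No.40 cells differed in 2 of the 7, beside 21.9% of all genes. TET2 had 8.66, 8.47 and 9.29 CPM in primed N40 Tg libraries, against 14, 10.1 and 11.2 CPM in No.40 libraries, and UHRF1 had 241, 261 and 290 CPM, against 192, 187 and 198 CPM. The groups did not overlap for either gene. TET2 fell by 0.53 (SE 0.12, adjusted p = 0.00578, edgeR) and UHRF1 rose by 0.35 (SE 0.11, adjusted p = 0.0311). Within the L1 and L2 runs, which leaves out No.40 library 1, TET2 was -0.37 (adjusted p = 0.0762) and UHRF1 0.36 (adjusted p = 0.0485), and TET2 was not called without No.40 library 1 (-0.28), nor UHRF1 without primed N40 library 3 (0.31). TET2 was also not called with the replicate block (adjusted p = 0.0634, edgeR) or with only the groups compared (adjusted p = 0.125), and neither gene was called in the fit over all 39 libraries. Of all genes called here 1490 were higher and 2447 lower, and without the filter on low counts 1873 of 3689 were higher.

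Primed DSY127 and primed No.40 cells also differed in 2 of the 7 genes, beside 4.47% of all genes. DNMT3A had 154, 165 and 163 CPM in DSY127 libraries, against 226, 318 and 307 CPM in No.40 libraries, and TET2 had 15.4, 17.5 and 19.1 CPM, against 14, 10.1 and 11.2 CPM. All DSY127 libraries were below all No.40 libraries for DNMT3A and above them for TET2. DNMT3A fell by 0.81 (SE 0.21, adjusted p = 0.037, edgeR) and TET2 rose by 0.56 (SE 0.12, adjusted p = 0.0131). The DNMT3A call was lost without any 1 of the 3 DSY127 libraries or of No.40 libraries 2 and 3 (-0.72 to -0.85), and the TET2 call without DSY127 library 3, No.40 library 2 or No.40 library 3 (0.46 to 0.50); within the L1 and L2 runs both held, at -0.94 and 0.72. Both were lost with the replicate block (adjusted p = 0.115 for DNMT3A and 0.0669 for TET2, edgeR) and in the fit over all 39 libraries (adjusted p = 1 for each), and TET2 also with only the groups compared (adjusted p = 0.113).

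Between the morula and the hatched blastocyst none of the 7 genes passed the edgeR threshold between a stage and the one before it. The later against the earlier stage gave 0 of 7 by edgeR at all 5 steps, with 1 gene at an unadjusted p below 0.05 at 4 steps and 0 at the hatching step. All genes were called at 6.16% for early ICM against morula, 0.0295% for blastocyst ICM against early ICM, 0% for expanded against blastocyst ICM, 0% for hatching against expanded and 0% for hatched against hatching, where 923, 831 and 1134 genes had an unadjusted p below 0.05 at the last 3 steps and DESeq2 called 322, 255 and 226. DESeq2 called 0 of the 7 genes except at the step to blastocyst ICM, where it called TET1 (-1.82), beside 1089 of 16929 genes. There edgeR gave -1.85 (SE 0.58, adjusted p = 0.226), or -2.81 with a call without blastocyst ICM library 1.

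Spread within the ICM groups was wide. DNMT3B had 50.1, 60.2 and 25.6 CPM in morulae, 96.6, 127 and 106 CPM in early ICM, 250, 95.5 and 157 CPM in blastocyst ICM, and 156, 139 and 194 CPM in expanded ICM. It had 136, 107 and 248 CPM in hatching ICM and 130, 617 and 199 CPM in hatched ICM. The early ICM libraries were above all morula libraries, and the value of 617 CPM was hatched ICM library 2, which also had the 353 CPM of primed markers and the highest DNMT3A level of its group, 194 CPM, against 82.1 and 98.7 CPM; the part of these markers in its level was not tested.

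TET2 had the widest range of the 7 genes over the 15 ICM libraries, 7.02 to 536 CPM. Its values were 311, 87.3 and 456 CPM in early ICM, 536, 179 and 7.02 CPM in blastocyst ICM, 85.5, 62.0 and 242 CPM in expanded ICM, 117, 101 and 40.0 CPM in hatching ICM and 171, 35.5 and 36.3 CPM in hatched ICM. Every stage overlapped the next, and blastocyst ICM library 3 was the lowest of all 39 libraries for TET2 and, at 4.68 CPM, for TET3. Primitive endoderm markers summed to 1765, 2824 and 4467 CPM in the same early libraries, 3967, 1594 and 987 CPM in the blastocyst ICM ones, 1863, 1146 and 2165 CPM in the expanded ones, 1361, 1653 and 556 CPM in the hatching ones, and 4416, 1095 and 2215 CPM in the hatched ones. Their part in the TET2 spread was not tested.

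The epiblast after implantation differed sharply from these stages. Against the mean of the 5 ICM stages, 6 of the 7 genes were higher in the epiblast and 0 lower, beside 44.8% of all genes called, 26.1% higher and 18.7% lower. The largest change was that of DNMT3B, with 4554, 4546 and 4502 CPM in the 3 epiblast libraries, against a lowest, median and highest value of 95.5, 139 and 617 CPM over 15 ICM libraries. The epiblast values lay within 1.01 times of each other and above every other library of the series. DNMT3B rose by 4.68 (SE 0.31, adjusted p = 3.19e-08, edgeR), a 25.6-fold difference. TET1 followed with 323, 376 and 275 CPM in epiblast, against 7.86, 48.7 and 124 CPM (lowest, median and highest) in ICM, a rise of 2.61 (SE 0.37, adjusted p = 3.77e-05).

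The remaining rises were smaller. DNMT1 had 109, 145 and 112 CPM in epiblast, against 8.02 to 54.2 CPM in ICM, and rose by 1.91 (SE 0.34, adjusted p = 0.000303, edgeR). TET3 had 104, 105 and 108 CPM in epiblast, against 4.68 to 89.5 CPM, and rose by 1.68 (SE 0.47, adjusted p = 0.00744). In contrast with the naive ESCs, DNMT1 and UHRF1 were here higher together: UHRF1 had 306, 295 and 329 CPM in epiblast, against 67.7 to 239 CPM in ICM, a rise of 1.10 (SE 0.28, adjusted p = 0.00464). DNMT3A had 308, 307 and 298 CPM in epiblast, against 67.9 to 284 CPM, and rose by 1.36 (SE 0.33, adjusted p = 0.0027). The median log2 fold change of all genes in this comparison was 0.197. With DESeq2 the log2 fold changes of the genes shifted by a median of 0.239. All epiblast libraries were above all ICM libraries for these 4 genes, although blastocyst ICM library 1, with 284 CPM of DNMT3A, came close.

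TET2 was the exception. It had 50, 26.1 and 41.6 CPM in epiblast, within the range of 7.02 to 536 CPM in ICM, and its change of -1.91 (SE 0.90, adjusted p = 0.0948, edgeR) did not pass the threshold. It did pass without blastocyst ICM library 3 (-1.92), and with DESeq2 (-1.67). Taken stage against stage, epiblast against hatched ICM had 4 of 7 genes called, all higher, beside 19.9% of all genes: DNMT3B (3.81, SE 0.54, adjusted p = 0.000114), TET3 (2.54, SE 0.72, adjusted p = 0.019), DNMT1 (1.59, SE 0.52, adjusted p = 0.0386) and TET1 (1.75, SE 0.58, adjusted p = 0.0404). DNMT3B alone held without any 1 library of the 2 groups. Each time 2 of the 7 genes were called, beside 1975 to 2884 of all genes. Without hatched ICM library 2 the pair was DNMT3B and DNMT3A (1.64), and without hatched ICM library 3 it was DNMT3B and DNMT1. Over all 7 embryo groups an F test in edgeR called 5 of the 7 genes, beside 38% of all genes, and TET2 (adjusted p = 0.215) and TET3 (adjusted p = 0.0697) were not called. Leaving out single libraries gave 2 genes (without epiblast library 2) to 7 (without blastocyst ICM library 3), beside 4645 and 6758 of all genes.

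Markers of fibroblasts and mesoderm were detected in the epiblast libraries, and in primed ESCs as well. The 4 fibroblast markers in the table (COL1A1, COL1A2, POSTN and DCN) summed to 1270 to 1423 CPM in epiblast, against 0 to 31.5 CPM in ICM, where DCN was at 0 in all 15 libraries, and all 4 were called higher. The 4 mesoderm markers summed to 107 to 110 CPM in epiblast, against 0 to 7.82 CPM in ICM. In primed ESCs the fibroblast sum was 282 to 353 CPM in DSY-c2 Tg and 482 to 762 CPM in N40 Tg libraries. It was 739 to 1757 CPM in DSY127 and 990 to 1805 CPM in No.40 libraries, so it was not particular to the epiblast. The part of these markers in the epiblast levels was not tested. The log2 fold change of DNMT3B over the ICM mean was 4.70 without hatched ICM library 1 and 4.78 without hatched ICM library 2. Both libraries are on the ICM side, so these values do not bear on other tissue in the epiblast libraries.

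**Figure D3:**
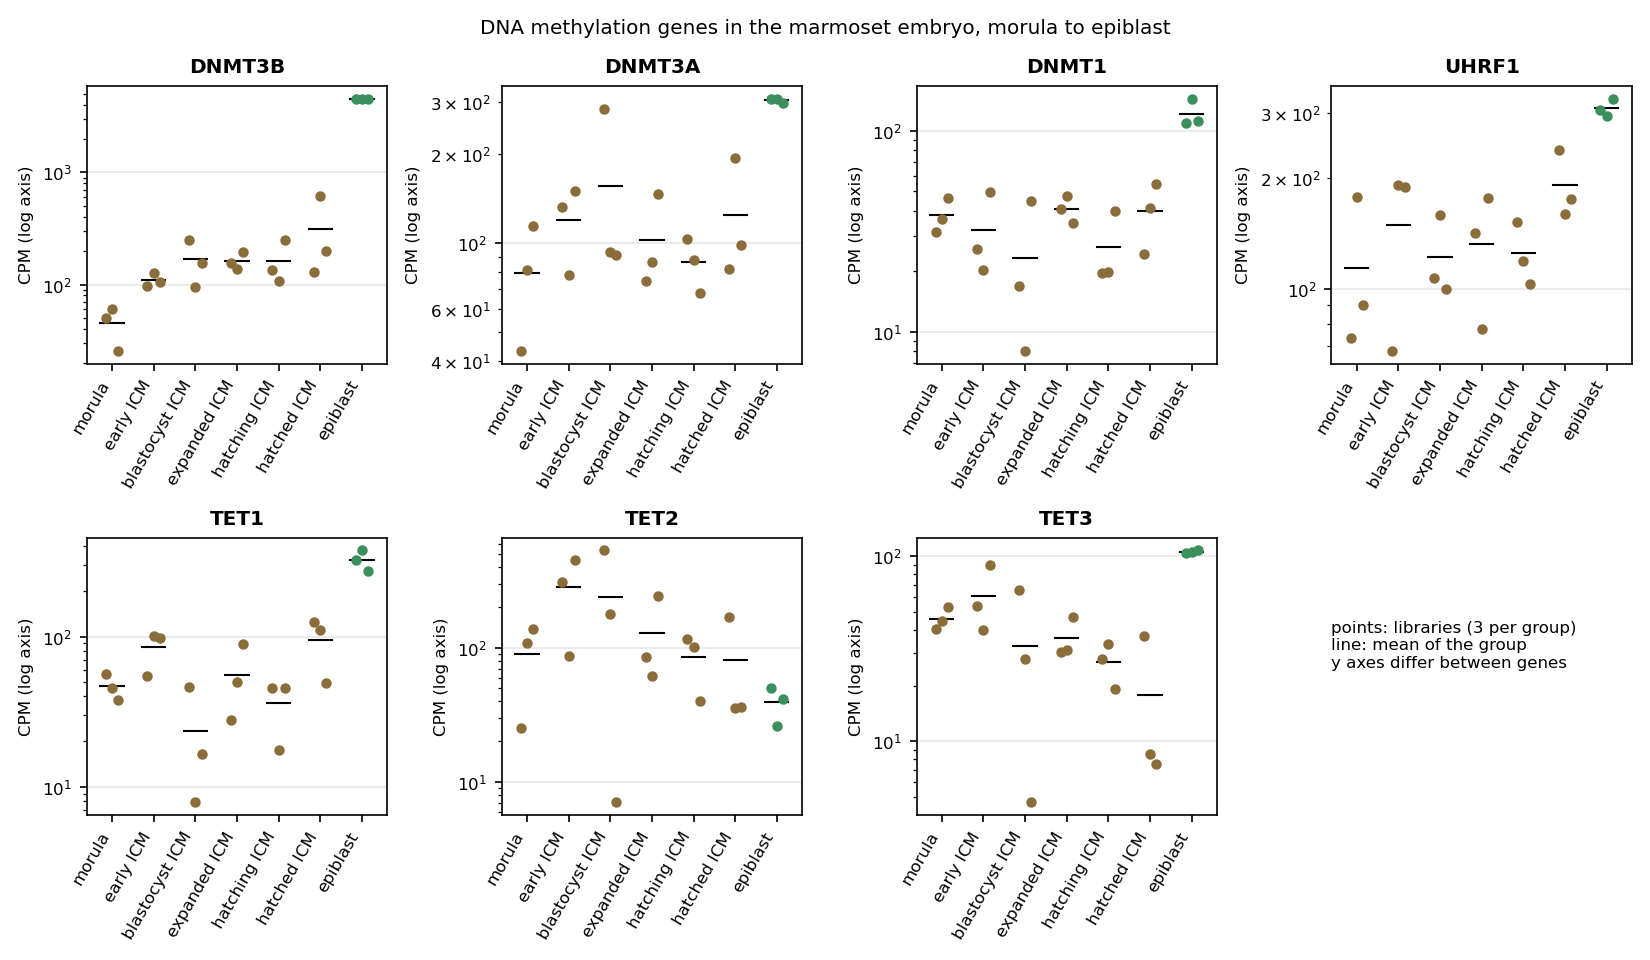
Transcript levels of the 7 genes from morula to postimplantation epiblast, in TMM-scaled CPM on a log axis that differs between genes. Each point is 1 library and each line the mean of 3. The epiblast (green) is above every earlier library for 6 genes, and for TET2 it lies inside the ICM range. Of all genes, 44.8% were called in epiblast against the ICM mean. The share of all genes with such separate libraries was not computed.

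Naive ESCs were then set against the ICM, and primed ESCs against the epiblast, in 1 fit over all libraries. In naive ESCs 6 of the 7 genes differed from the mean of the ICM stages, 3 higher and 3 lower, beside 59.7% of all genes. DNMT3B had 611 to 1218 CPM in 6 naive libraries, against 95.5 to 617 CPM in 15 ICM libraries, a rise of 2.36 (SE 0.21, adjusted p = 1.17e-10, edgeR), and the only ICM library to reach the naive range was hatched ICM library 2. DNMT1, with 95.7 to 108 CPM against 8.02 to 54.2 CPM, rose by 1.68 (SE 0.23, adjusted p = 2.92e-07), and TET1, with 133 to 193 CPM against 7.86 to 124 CPM, rose by 1.66 (SE 0.24, adjusted p = 5.89e-07). Naive libraries were above every ICM library for both.

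The other genes were lower in naive ESCs or not called. UHRF1 had 45.9 to 74.1 CPM in naive ESCs, against 67.7 to 239 CPM in ICM, and fell by 1.30 (SE 0.19, adjusted p = 1.44e-06, edgeR). TET3 had 6.21 to 16.7 CPM, against 4.68 to 89.5 CPM, and fell by 1.66 (SE 0.34, adjusted p = 0.00013), and DNMT3A had 48.9 to 107 CPM, against 67.9 to 284 CPM, and fell by 0.81 (SE 0.23, adjusted p = 0.00321), a call lost without naive N40 library 2 (-0.53). TET2 had 78.8 to 99.7 CPM in naive ESCs, inside the wide ICM range of 7.02 to 536 CPM, and its difference of -0.68 (SE 0.47, adjusted p = 0.212) was not called. The median log2 fold change of all genes in this comparison was 0.366, so the rises are smaller and the falls larger relative to it. Without the filter on low counts, the log2 fold changes of the genes in both fits shifted by a median of 0.176. Within the L1 and L2 runs the same number of genes, 6, was called.

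Primed ESCs had less of 5 of the 7 genes than the epiblast, and more of 0, beside 38.4% of all genes called. The log2 fold change was -1.29 for DNMT1 (SE 0.30, adjusted p = 0.00095, edgeR), -0.86 for DNMT3B (SE 0.29, adjusted p = 0.0179), -0.70 for UHRF1 (SE 0.23, adjusted p = 0.0163), -1.56 for TET2 (SE 0.55, adjusted p = 0.0245) and -0.83 for TET1 (SE 0.32, adjusted p = 0.0382). No primed library reached the epiblast range for these genes: DNMT1, for example, was at 30.9 to 74.6 CPM in 12 primed libraries, against 109 to 145 CPM in epiblast, and TET2 at 8.47 to 19.1 CPM, against 26.1 to 50 CPM. DNMT3A and TET3 overlapped and were not called. DNMT1 alone kept its call under every alternative. It was the 1 gene called within the L1 and L2 runs, beside 5550 of 20456 genes. Without the filter on low counts it was also the 1 gene called, beside 6776 of 26593 genes. Without that filter the log2 fold changes of the genes in both fits shifted by a median of 0.142. Leaving out single libraries left 1 to 3 genes, beside 5398 to 6759 of all genes.

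Ordered over all 13 groups, DNMT3B ran over a 178-fold range between its lowest and highest library, the widest of the 7 genes. The epiblast came first, clear of the 4 primed ESC groups, whose ranges overlapped in their order (DSY127, DSY-c2 Tg, N40 Tg and No.40, at 2727, 2614, 2374 and 2326 CPM on average). Naive N40 (1115 CPM) and naive DSY-c2 (711 CPM) followed, each clear of the group above. Naive DSY-c2 cells overlapped the hatched ICM. The ICM stages from hatched to expanded (315 to 163 CPM) overlapped, early ICM (110 CPM) lay below expanded ICM, and the morula (45.3 CPM) lay below early ICM.

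TET2 had nearly the opposite order. Early ICM (285 CPM) and blastocyst ICM (240 CPM) were highest, and these and expanded ICM, both naive ESC groups, morula, hatching and hatched ICM and epiblast (39.2 CPM) overlapped neighbour by neighbour. The primed ESC groups lay below the epiblast, with DSY127 and DSY-c2 Tg (17.3 and 17.2 CPM) overlapping, No.40 (11.8 CPM) clear below them, and N40 Tg (8.81 CPM) clear below No.40. DNMT1 was highest in the epiblast (122 CPM), then in naive DSY-c2 and naive N40 (105 and 98.9 CPM), and all groups below these overlapped their neighbours, 52.7 to 23.2 CPM on average. UHRF1 and TET3 were lowest in naive N40 (50.2 and 8.27 CPM), and DNMT3A in naive DSY-c2 (58.2 CPM). TET1 was highest in the epiblast (325 CPM), and the 6 ESC groups, 204 to 143 CPM on average, overlapped neighbour by neighbour with naive and primed groups mixed. All ESC groups were above the hatched ICM (94.5 CPM), and the embryo groups from there to blastocyst ICM (23.5 CPM) overlapped.

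Ratios between members, which are compared only across groups, set the states apart. The ratio of DNMT1 to UHRF1 counts was 1.42 to 2.16 in the 6 naive ESC libraries, against 0.174 to 0.409 in 12 primed ESC libraries and 0.0504 to 0.609 in 21 embryo libraries. No other library approached the naive ones. The ratio of TET2 to TET1 was 0.437 to 0.748 in naive ESCs, 0.0531 to 0.0962 in primed ESCs, 0.0694 to 0.155 in epiblast and 0.321 to 22.7 in ICM. By this ratio naive ESCs lay at the low end of the ICM, and primed ESCs overlapped the epiblast. The ratio of DNMT3B to DNMT3A did not follow the states: it was 9.42 to 20.8 in naive ESCs, 5.01 to 19.1 in primed ESCs and 14.8 to 15.1 in epiblast, against 0.702 to 3.65 in ICM.

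**Figure D4:**
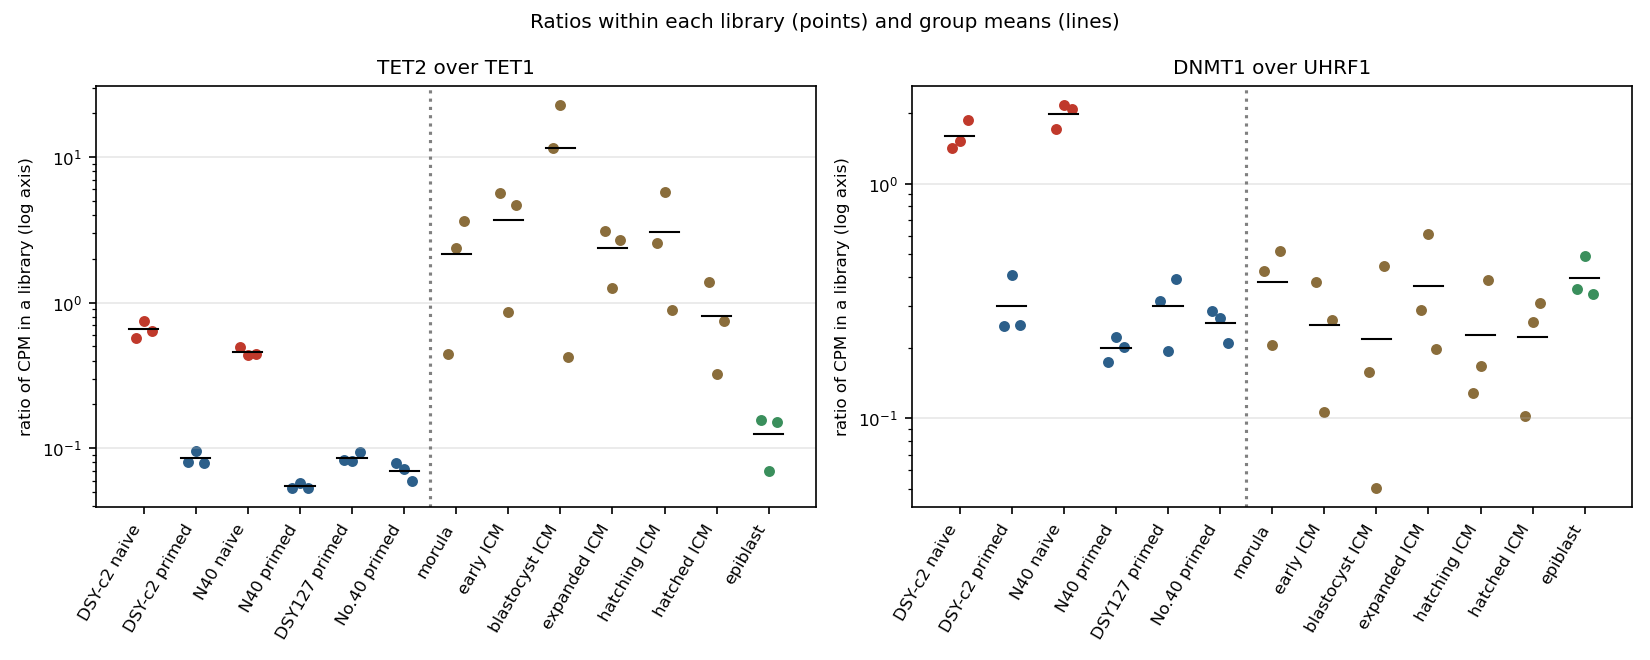
Ratios of CPM of TET2 to TET1 and of DNMT1 to UHRF1 in each of the 13 groups, on log axes. Each point is 1 library. The naive ESC libraries hold the highest DNMT1 to UHRF1 ratios of the series (1.42 to 2.16). Their TET2 to TET1 ratios (0.437 to 0.748) lie above those of primed ESCs (0.0531 to 0.0962).

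Across the 13 group means, on the log2(CPM + 1) scale, DNMT3B went most closely with TET1 among the members (Pearson r = 0.87) and against TET2 (r = -0.80), and UHRF1 went with DNMT3A (r = 0.86) and TET3 (r = 0.84). DNMT1 and UHRF1 showed little common course (r = -0.12). Among 8837 named genes with a mean of at least 10 CPM in 1 or more groups, those most like DNMT3B were ZNF687 (r = 0.989), ITPR3 (r = 0.985), SMARCA1 (r = 0.985), CTBP2 (r = 0.984) and ATP7B (r = 0.984), and those most unlike it SLC35B1 (r = -0.989), JMJD6 and TTC9C (both r = -0.979). TET2 was most like MKNK1 (r = 0.981), ATP6V1B1 (r = 0.977), AP4B1 (r = 0.974), BRAT1 (r = 0.973) and the hexokinase HK2 (r = 0.969), and most unlike TSPAN9 (r = -0.979), EPHA2 (r = -0.967) and CHMP4C (r = -0.962). TET1 was most like NNT (r = 0.957), TRANK1 (r = 0.955), ERCC5 (r = 0.951), STK31 (r = 0.943) and WDR6 (r = 0.940), and most unlike CSNK2B (r = -0.944), TBRG1 (r = -0.939) and DDB2 (r = -0.934). These correlations describe 13 points that mix cultured cells and embryos, and are not tests.

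Partners of the maintenance machinery changed in part with the naive state. Of 9 tested, 4 were higher and 1 lower in naive DSY-c2 cells and 5 higher and 1 lower in naive N40 cells, where 29.6% and 32.3% of all genes were higher and 29.3% and 28.7% lower. LIG1, the ligase that joins replicated DNA and recruits UHRF1 in human and mouse cells, averaged 511 ± 50.2 CPM in naive DSY-c2 and 160 ± 26.3 CPM in primed DSY-c2 cells (SD, n = 3 each), and 596 ± 48.8 CPM in naive N40 and 216 ± 20.7 CPM in primed N40 cells (SD, n = 3 each). LIG1 rose by 1.78 (SE 0.13, adjusted p = 1.06e-08, edgeR) and 1.61 (SE 0.13, adjusted p = 2.19e-08). CDCA7, which brings the remodeller HELLS to chromatin, rose by 0.63 (adjusted p = 0.00155; 0.46 and not called within the L6 and L7 runs) in DSY-c2 and 1.30 (adjusted p = 1.26e-06) in N40, while HELLS itself fell by 0.48 (adjusted p = 0.00109) and fell by 0.57 (adjusted p = 0.000212). In the epiblast HELLS averaged 882 ± 67.6 CPM (SD, n = 3) and in the ICM 179 ± 156 CPM (SD, n = 15), a rise of 2.54 (SE 0.35, adjusted p = 3.27e-05, edgeR). UHRF2, the paralogue of UHRF1, rose by 1.13 (adjusted p = 0.0121, edgeR). Of 8 partners tested there 3 were higher and 1 lower, where 26.1% of all genes were higher and 18.7% lower.

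Genes that act after the TETs were listed next. Of 10 tested genes of oxidised base removal, 3 were higher and 2 lower in naive DSY-c2 cells (beside 29.6% and 29.3% of all genes), 4 higher and 4 lower in naive N40 cells (32.3% and 28.7%), and 5 higher and 2 lower in epiblast (26.1% and 18.7%). TDG, the glycosylase that excises the oxidised bases made by TETs, fell by 0.63 (SE 0.12, adjusted p = 0.00021, edgeR) in naive DSY-c2 and fell by 0.82 (SE 0.12, adjusted p = 1.23e-05) in naive N40 cells. It rose by 2.15 (SE 0.50, adjusted p = 0.00215) in epiblast, to 179 ± 17.5 CPM (SD, n = 3), against 44.5 ± 35.4 CPM in ICM (SD, n = 15). UNG, the uracil glycosylase, rose by 0.99 (adjusted p = 9.46e-07) and 0.94 (adjusted p = 1.36e-06) in the naive cells of DSY-c2 and N40.

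Supply of cofactors was covered by a further pair of lists, for which 29.6% and 29.3% of all genes (higher and lower) in DSY-c2, 32.3% and 28.7% in N40 and 26.1% and 18.7% in epiblast are the background. Of 11 tested TET regulators and genes of 2-oxoglutarate supply, 4 were higher and 5 lower in naive DSY-c2 cells, 6 higher and 3 lower in naive N40 cells, and 3 higher and 2 lower in epiblast. IDH2, a mitochondrial enzyme that makes 2-oxoglutarate, fell by 1.33 (SE 0.14, adjusted p = 5.54e-07, edgeR) and fell by 2.18 (SE 0.14, adjusted p = 2.84e-09), and IDH3A, a subunit of the other mitochondrial isocitrate dehydrogenase, rose by 1.34 (adjusted p = 1.21e-09) and 0.93 (adjusted p = 2.99e-08). CXXC5, a zinc finger protein that binds TET2 in mouse cells, fell by 0.88 (adjusted p = 0.000105) in naive DSY-c2 cells, fell by 1.02 (adjusted p = 2.01e-05) in naive N40 cells and rose by 1.83 (SE 0.41, adjusted p = 0.0016) in epiblast. Of 14 tested genes of the S-adenosylmethionine cycle, which makes the methyl donor, 5 were higher and 4 lower in naive DSY-c2 cells, 3 higher and 6 lower in naive N40 cells, and 4 higher and 1 lower in epiblast. MTRR rose by 1.68 (adjusted p = 1.58e-10) and 1.73 (adjusted p = 7.43e-11) in the naive cells, MAT2B by 1.26 (adjusted p = 6.16e-08) and 2.02 (adjusted p = 4.37e-10), and MTHFD2 fell by 1.23 (adjusted p = 1.16e-05) and fell by 2.51 (adjusted p = 6.82e-09).

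Readers of methylation and chromatin enzymes linked to it were read against the same shares of all genes, 29.6% higher and 29.3% lower in DSY-c2, 32.3% and 28.7% in N40, and 26.1% and 18.7% in epiblast. Of 6 tested methyl-CpG readers, 3 were higher and 0 lower in naive DSY-c2 cells, 4 higher and 1 lower in naive N40 cells, and 0 higher and 1 lower in epiblast. MBD6, a member of the methyl-CpG-binding domain family, rose by 1.46 (SE 0.19, adjusted p = 8.3e-06, edgeR) in naive DSY-c2 and 1.45 (SE 0.19, adjusted p = 7.17e-06) in naive N40 cells. Of 13 genes for histone marks that guide methylation, 6 were higher and 3 lower in naive DSY-c2, 7 higher and 2 lower in naive N40, and 7 higher and 1 lower in epiblast. EED, a Polycomb subunit, rose by 1.21 (adjusted p = 8.47e-05) and 1.60 (adjusted p = 4.34e-06) in naive cells and fell by 2.02 (adjusted p = 1.41e-05) in epiblast. KDM1A, a histone demethylase needed for DNA methylation in mouse ESCs, fell by 0.78 (adjusted p = 1.82e-06) and fell by 0.65 (adjusted p = 1.08e-05) in naive cells. NSD1, which writes a histone mark bound by DNMT3A, rose by 1.71 (SE 0.17, adjusted p = 1.34e-06) in epiblast, with 326 to 352 CPM, against 70.3 to 125 CPM in ICM.

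Germline genes whose promoters are silenced by methylation in somatic cells of the mouse were also listed, and 16 were tested. In naive N40 TgOFF cells 11 were higher and 1 lower than in primed cells; in naive DSY-c2 TgON cells 5 were higher and 4 lower, and in epiblast 3 were higher and 4 lower than in ICM. Of all genes, 32.3% were higher and 28.7% lower in N40, 29.6% and 29.3% in DSY-c2, and 26.1% and 18.7% in epiblast, so the DSY-c2 and epiblast counts lie near the background. SYCE1, of the synaptonemal complex, averaged 13.4 ± 4.85 CPM in naive DSY-c2 and 2.97 ± 0.789 CPM in primed DSY-c2 cells, and 13.4 ± 1.71 CPM in naive N40 and 0.720 ± 0.244 CPM in primed N40 cells (SD, n = 3 each). BRDT, a testis bromodomain gene, averaged 23.7 ± 13.4 CPM in naive N40 and 1.14 ± 0.370 CPM in primed N40 cells, a rise of 4.53 (SE 0.36, adjusted p = 2.38e-08, edgeR). PIWIL1, a germline Argonaute, was lower in naive DSY-c2 cells, with 3.13 ± 1 CPM against 87.1 ± 37.3 CPM in primed DSY-c2 cells (adjusted p = 1.19e-07). In epiblast DDX4 was at 0 to 0.452 CPM, against 21.1 to 186 CPM in ICM, and GTSF1 at 0 to 0.203 CPM, against 12.2 to 47.6 CPM (adjusted p = 1.79e-05 and 7.85e-06, edgeR). PIWIL1 and STK31 were higher there, PIWIL1 at 11.5 to 17.7 CPM in epiblast, against 0 to 5.37 CPM in ICM, and STK31 at 14.4 to 25.3 CPM, against 0 to 25.7 CPM (adjusted p = 0.000488 and 0.00654). The difference between the lines in the germline list as a whole was not tested.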

How the data were processed

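The deposited table holds raw counts per gene, made by the authors from poly(A)+ TruSeq Stranded mRNA libraries, per the labels' protocols. Trim Galore 0.4.0, STAR 2.5.3a and featureCounts 1.5.2 are named in the submitters' processing notes; the genome build, the annotation and the strand setting were not stated there or in the labels, so antisense or overlapping genes may share reads. Of its columns, 78 hold 2 runs of each of 39 libraries and were summed per library; 6 columns of no sample were not used. Symbols are given for 12660 of 30811 genes (41.1%), so partner lists are incomplete.

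Tests were edgeR 4.0.16 (R 4.3.3) quasi-likelihood fits with filterByExpr, TMM and Benjamini-Hochberg adjustment over all genes: 1 fit over ESC libraries, 1 over embryo libraries, and 1 over all 39 for ESC against embryo. DESeq2 1.42.0, other filters and scalings, a replicate block, restriction by run label (added after the data were seen) and leaving out each library were alternatives. The scripts were tested on simulated data. The genes and the lists were chosen with earlier results of these data known. From each list, up to 2 called genes each way with the largest change and at least 10 CPM come under the naming rule; a part of these is described, and some are not reported here. Depth was 38.8 M to 78.7 M counts per ESC library and 45.3 M to 59.0 M per embryo library.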

Additional observations from a re-analysis of the deposited data

Results flagged for a closer look

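The naive change differed in size between DSY-c2 and N40 for 5 genes by the edgeR test of the difference itself. The difference, DSY-c2 minus N40 on the log2 scale, was -0.83 for DNMT3B, -0.77 for TET1, -0.90 for TET2, 0.97 for TET3 and 0.99 for UHRF1. TET1 fell in naive DSY-c2 TgON cells (-0.40) and rose in naive N40 TgOFF cells (0.37), and the other 4 genes moved the same way in both lines by different amounts. Line and transgene state cannot be told apart here. In the fit over all 39 libraries none of the 5 differences was called.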

How the results depend on the processing

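Over 2023 recomputed values of the 7 genes 158 lost their call, 22 gained one and no called value changed sign, although values that were not called did (DNMT1 in DSY-c2 Tg against DSY127, 0.13, reached -0.17 with a library left out, and TET2 in epiblast against hatched ICM, -1.07, reached 0.20); of 1241 for the named list genes 40 lost their call, mostly in the fit over all 39 libraries. In that single fit, embryo and ESC libraries share 1 estimate of the spread. It called 4 of the 7 genes for naive against primed DSY-c2 and 4 for N40, beside 1748 and 2371 of 18756 genes. For their difference it called 0, beside 12 genes, and for naive DSY-c2 against naive N40 0, beside 90. For N40 Tg against No.40 it called 0 of the 7, beside 267 of all genes, against 3937 in the main fit. DSY127 against No.40 had 0, beside 13 of all genes, against 802 in the main fit. For early ICM against morula it called 1, beside 4439 of all genes, against 1042 in the main fit. For blastocyst against early ICM it called 1, beside 1733 of all genes, against 5 in the main fit. DESeq2 gave 1 for blastocyst against early ICM, beside 1089 of 16929 genes. Without the low-count filter, 2 were called for epiblast against hatched ICM, beside 2865 of 23710 genes. For primed ESCs against epiblast 1 was called there, beside 6776 of 26593 genes. With only the groups compared, N40 Tg against No.40 gave 1, beside 1748 of 16628 genes. Within the L1 and L2 runs, chosen after the data were seen, 1 was called for N40 Tg against No.40, beside 2086 of 19088 genes. For primed ESCs against epiblast 1 was called there, beside 5550 of 20456 genes. The naive DSY-c2 group had 1 library there, so no count is given for naive against naive. Libraries of the same replicate number showed no clear likeness (same-number correlations -0.209 to 0.121). Such values cannot exclude a shared culture or embryo source. With the replicate block 1 gene was called for N40 Tg against No.40, beside 3808 of 18124 genes, and 0 for DSY127 against No.40, beside 493. TET1 in N40 was 0.27 there (adjusted p = 0.0566, edgeR). No paired analysis was possible for DSY-c2 because its groups share 1 number. Leaving out single libraries gave 3 to 5 genes for the difference, 1 to 4 for naive against naive, 1 to 2 for N40 Tg against No.40, 0 to 2 for DSY127 against No.40, 0 to 1 for blastocyst against early ICM, 2 for epiblast against hatched ICM, 2 to 7 for the F test and 1 to 3 for primed ESCs against epiblast. Over all genes, with 17617 to 19328 tested, these fits called 2049 to 2673 for the difference and 4979 to 5687 for naive against naive. They called 2571 to 4740 for N40 Tg against No.40 and 368 to 1165 for DSY127 against No.40. Blastocyst against early ICM had 4 to 127 genes, and epiblast against hatched ICM 1975 to 2884. The F test had 4645 to 6832, and primed ESCs against epiblast 5398 to 6759. The causes were not tested. The F test was not run in the single fit.

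Over all genes, early ICM against morula had 658 of 1042 calls higher, and 1329 of 2763 with DESeq2; blastocyst against early ICM had 5 of 5, and 770 of 1089 with DESeq2.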
